A study of Mus musculus with 18 samples.

Results

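The hearts of young mice lacking Sesn2 were compared with the hearts of old wild-type mice, in both cases after ischemia and reperfusion (IR). The comparison rested on 6 of the 18 RNA-seq libraries of the study, 3 from Sesn2-knockout left ventricles and 3 from aged wild-type left ventricles, chosen by their genotype, age and treatment labels. Each library was a table of reads per gene over 24421 gene symbols, of which 13859 had enough reads to be tested. The knockout mice (Sesn2-/-) were 3 to 4 months old, the aged wild-type mice were 24 to 26 months old, and both groups were labelled C57BL/6. IR meant occlusion of the left anterior descending artery for 45 min, then reopening for 24 h, and sham surgery meant opening of the chest without occlusion. The study also held sham libraries of both groups (3 each) and young wild-type mice of 3 to 4 months after sham surgery or IR (3 each), which were used here as reference levels. Per the labels' protocols, the young wild-type mice came from the Jackson Laboratory, the aged ones from Charles River, and the knockout mice were bred in the authors' own laboratory. Genotype, age and supplier therefore changed together between the groups compared and cannot be told apart. The labels name no Cre driver for the Sesn2-/- mice, so effects in cardiomyocytes and in other cells of the tissue cannot be told apart either. Nothing in the labels ties a sample to a litter, batch or day, so every p-value measures only the spread between these samples.

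Sestrin 2, the product of Sesn2, is a stress-induced protein that binds leucine, restrains the growth kinase complex mTORC1 through the GATOR complexes and favours activation of the energy sensor AMPK. In the heart, AMPK supports fatty acid and glucose use when blood flow falls and returns, and loss of sestrin 2 with age is one of the changes linked to a poorer tolerance of ischemia. Reperfusion of ischemic muscle is followed within a day by an influx of neutrophils and monocytes, by release of acute-phase and matrix-remodelling proteins from surviving cells, and by a fall of transcripts for mitochondrial fuel use.

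The 6 libraries held 9404531 to 13505333 reads assigned to genes. The knocked-out gene followed the labels: the aged IR libraries had 41, 42 and 37 Sesn2 reads and the knockout IR libraries 3, 4 and 1. Within the groups, some libraries stood apart. Aged IR 3 and knockout IR 3 were tilted toward long transcripts, with rank correlations of 0.39 and 0.37 between a gene's deviation from its group mean and its transcript length, against -0.30 to -0.16 in the other 4 libraries. Knockout IR 1 and, to a lesser degree, knockout IR 3 held transcripts of atrial muscle that a left ventricle does not normally make. Sarcolipin (Sln), an atrial regulator of the calcium pump, stood at 0.0758, 0.112 and 0 CPM (reads scaled to the library size) in aged IR 1 to 3 and at 104, 0.161 and 10.98 CPM in knockout IR 1 to 3. The atrial myosin light chain Myl7 stood at 1.06, 0 and 0.530 CPM in aged IR and at 252, 0.483 and 37.3 CPM in knockout IR. Of 15 atrial and conduction markers 11 were tested, and 10 were higher in knockout IR. Of these, 6 had an unadjusted p below 0.05, and edgeR called none. Sln, Myl7 and Myl4 were called by the DESeq2 Wald test without its filter on mean counts. The summed level of the 11 markers was 280 to 651 CPM in aged IR and 950 to 1770 CPM in knockout IR. Knockout IR 2 was thus also at 950 CPM or more, so the sum does not follow Sln and Myl7. The mean log2 CPM of the 11 markers was 2.54, 2.09 and 2.35 in aged IR 1 to 3 and 5.05, 2.77 and 4.18 in knockout IR 1 to 3. Sham libraries held some atrial transcripts as well, with Myl7 at 2.78 to 19.7 CPM in aged sham and 0.0741 to 27.3 CPM in knockout sham. Counts of calls and most list medians are also given without knockout IR 1 and 3 (called here the fit without the atrial-transcript libraries, which leaves knockout IR 2 alone in its group), and the part of atrial tissue in the results was not tested.

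Few genes were called between the injured knockout hearts and the injured old wild-type hearts. With 3 libraries per group, a low number of calls does not show that the hearts are alike. Of 13859 genes tested, 10 differed at an adjusted p below 0.05 (edgeR quasi-likelihood test on all 18 libraries, Benjamini-Hochberg adjustment), which is 0.0722% of the genes. Of these, 3 rose in the knockout relative to the aged heart (0.0216%) and 7 fell (0.0505%). The same contrast between the sham groups called 322 genes (2.32%), of which 213 were higher in the knockout (1.54%) and 109 lower (0.786%). At an unadjusted p below 0.05, 498 genes were higher in knockout IR (3.59%) and 570 lower (4.11%). The count differed between fits: 0 genes were called with the 6 IR libraries alone in the edgeR fit (655 at an unadjusted p below 0.05), 41 by limma voom with library weights, and 52 by the DESeq2 Wald test without its filter on mean counts. The CPM of the groups did not overlap for 785 genes that were higher (5.66%) and 741 that were lower (5.35%) in the knockout.

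The profiles of the injured hearts did not separate by group. The root mean square difference of log2 CPM over the tested genes was 0.372 to 0.644 between an aged IR and a knockout IR library, with a median of 0.493 over the 9 pairs. Within the groups it was 0.444 to 0.567 in aged IR (median 0.467) and 0.441 to 0.595 in knockout IR (median 0.544), so the ranges between and within groups overlapped. The closest of these pairs was aged IR 3 with knockout IR 3, at 0.372, and these are both libraries with the tilt toward long transcripts. The nearest library of aged IR 2 and of knockout IR 1, among all 18, was an uninjured heart, knockout sham 2, at 0.379 and 0.410. In sham hearts the pairs between groups lay at 0.471 to 0.637 (median 0.569), against 0.353 to 0.464 within aged sham and 0.371 to 0.505 within knockout sham. The response to IR, taken as the log2 difference of IR and sham within each group, correlated between knockout and aged hearts with a Pearson r of 0.63 and a Spearman rho of 0.63 across 13859 genes; genes are not independent replicates, and this is a description.

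Sesn2 itself was the called gene with the lowest value. It lies at chr4:132492032-132510501 (GRCm38) and stood at 3.11, 4.70 and 3.27 CPM in aged IR 1 to 3 and at 0.301, 0.322 and 0.0708 CPM in knockout IR 1 to 3. The fall was 3.99 ± 0.56 on the log2 scale (SE; edgeR adjusted p = 0.00572), from 120 reads over the 3 aged libraries to 8 over the 3 knockout libraries. A low remainder of reads over the gene was present in every knockout IR library. A pair of the other called genes sit close to Sesn2 on the same chromosome. Sfn, which encodes the 14-3-3 sigma adaptor and is a target of p53, lies 1.09 Mb away at chr4:133600556-133602168. It was at 5.46, 2.80 and 8.13 CPM in aged IR and at 1.503, 1.53 and 0.708 CPM in knockout IR, and fell by 2.15 ± 0.38 on the log2 scale (edgeR adjusted p = 0.0455). Hmgn2, which encodes a nucleosome-binding protein that loosens chromatin, lies 1.45 Mb away at chr4:133964738-133968650. It was at 77.8, 96.0 and 56.2 CPM in aged IR and at 28.6, 25.3 and 22.4 CPM in knockout IR, and fell by 1.59 ± 0.21 on the log2 scale (edgeR adjusted p = 0.00421). For all of these genes the highest knockout library lay under the lowest aged library. Hmgn2 has many near-identical copies in the genome, so its counts are uncertain. In the stretch up to 10 Mb on either side of Sesn2, edgeR called 2 genes out of 257, Sfn and Hmgn2. Among the 13087 genes placed elsewhere it called 6, and Sesn2 and Pydc3 are in neither count. At an unadjusted p below 0.05 the numbers were 23 near Sesn2 (8.95%) and 1003 elsewhere (7.66%). In sham hearts 5 genes near Sesn2 (1.95%) and 307 elsewhere (2.35%) were called. Whether these shares differ was not tested.

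The promoter sequences of these neighbouring genes are shown because all were lower in the knockout on the same stretch of chromosome 4. They are taken from RefSeq (GRCm38.p6), as bases upstream of the RefSeq start that lie in no exon of GENCODE M21, 5′ to 3′ on the minus strand, on which all 3 genes lie. The RefSeq start of Hmgn2 lies within the longer GENCODE span given above, so its window does too. The windows are chr4:132510502-132510706 for Sesn2, chr4:133602169-133602418 for Sfn and chr4:133968002-133968241 for Hmgn2, and capitals mark matches, on either strand, to the motifs named after them.
Sesn2: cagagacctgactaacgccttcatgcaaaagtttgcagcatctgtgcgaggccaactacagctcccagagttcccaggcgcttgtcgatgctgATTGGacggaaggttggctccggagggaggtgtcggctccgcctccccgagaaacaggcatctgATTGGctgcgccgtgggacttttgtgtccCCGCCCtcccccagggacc
Sfn: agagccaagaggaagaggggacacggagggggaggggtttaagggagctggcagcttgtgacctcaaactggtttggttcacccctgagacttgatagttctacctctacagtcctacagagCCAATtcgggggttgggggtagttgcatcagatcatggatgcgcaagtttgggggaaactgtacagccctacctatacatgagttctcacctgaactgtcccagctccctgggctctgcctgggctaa
Hmgn2: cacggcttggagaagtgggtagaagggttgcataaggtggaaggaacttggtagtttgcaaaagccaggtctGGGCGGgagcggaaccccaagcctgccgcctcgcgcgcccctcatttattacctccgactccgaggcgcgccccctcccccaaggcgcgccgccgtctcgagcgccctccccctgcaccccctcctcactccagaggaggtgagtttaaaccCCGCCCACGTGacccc
The motifs searched on both strands were the GC box (GGGCGG), the CCAAT box (CCAAT), the E-box (CACGTG), the AP-1 site (TGANTCA), the cyclic AMP response element (TGACGTCA) and the antioxidant response element (TGACNNNGC). The Sesn2 window held 2 CCAAT boxes and 1 GC box, and of 32851 promoter windows of that length 29.2% held at least 1 CCAAT box and 25.6% at least 1 GC box. The Sfn window held 1 CCAAT box (at least 1 in 33.8% of windows of its length). The Hmgn2 window held 2 GC boxes (at least 1 in 31.3%) and 1 E-box (5.69%), which overlaps a GC box. No AP-1 site, cyclic AMP response element or antioxidant response element was found in these windows. A promoter was matched for 4 of the 10 called genes, and the fourth, of Hpn, is on another chromosome and is not shown.

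The largest rise among the called genes was that of Wdfy1, which encodes an endosomal protein with WD repeats and a lipid-binding FYVE domain and lies at chr1:79702262-79776143. Wdfy1 was at 11.1, 11.2 and 17.6 CPM in aged IR and at 51.7, 74.8 and 81.9 CPM in knockout IR, a difference of 2.39 ± 0.23 on the log2 scale (SE; edgeR adjusted p = 0.000157). Every knockout library was above every aged library. The pseudogene Tmem181b-ps (chr17:6438524-6467022) was at 5.002, 4.59 and 6.63 CPM in aged IR and at 26.6, 23.7 and 16.4 CPM in knockout IR (log2 difference 2.03 ± 0.24, edgeR adjusted p = 0.00137). Its neighbour Dynlt1b, a dynein light chain gene that starts the same stretch at chr17:6430112-6436296 and ends 2227 bases before it, was at 2.43, 1.90 and 2.03 CPM in aged IR and at 7.22, 6.36 and 5.31 CPM in knockout IR (log2 difference 1.55 ± 0.20, edgeR adjusted p = 0.00276). Neither gene's groups overlapped, but both have near-identical copies on chromosome 17 and the split of reads between copies is uncertain.

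Pydc3, an interferon-inducible gene for a pyrin-domain protein at chr1:173673628-173698393, was at 3.56, 2.91 and 3.00 CPM in aged IR and at 0.301, 0.241 and 0.496 CPM in knockout IR (log2 difference -3.13 ± 0.44, edgeR adjusted p = 0.00572). It belongs to a cluster of closely related genes, so its counts are uncertain as well. Hpn, the gene of the membrane serine protease hepsin at chr7:31098725-31115290, was at 5.61, 4.03 and 3.80 CPM in aged IR and at 1.30, 1.21 and 1.28 CPM in knockout IR (-1.83 ± 0.26, edgeR adjusted p = 0.00572). Gnb3, which encodes a G protein beta subunit and lies at chr6:124834240-124840275, was at 15.8, 17.1 and 11.8 CPM in aged IR and at 3.91, 7.16 and 4.96 CPM in knockout IR (-1.47 ± 0.22, edgeR adjusted p = 0.00859). These 3 genes were low in every knockout library, with no overlap. Guf1, which encodes a GTPase that acts on mitochondrial ribosomes and lies at chr5:69556923-69575973, had the smallest difference: 61.2, 57.3 and 57.2 CPM in aged IR and 36.3, 40.2 and 33.9 CPM in knockout IR (-0.67 ± 0.12, edgeR adjusted p = 0.046). Its aged libraries were nearly equal to each other and all above the knockout libraries.

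**Figure D1:**
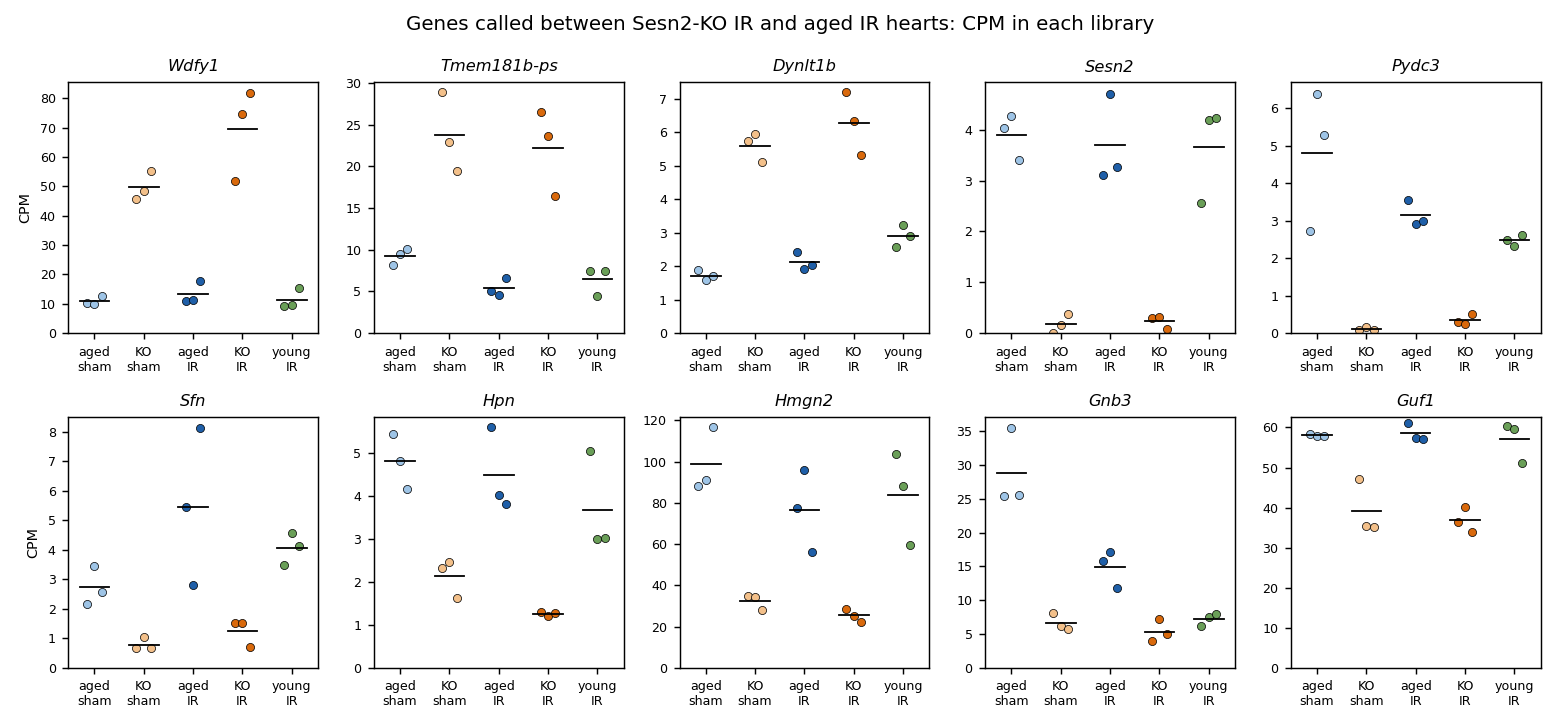
CPM (linear axis) of the 10 genes called between knockout IR and aged IR hearts, 1 point per library, in aged sham, knockout sham, aged IR, knockout IR and young IR. In each gene the knockout points lie apart from the aged points in both sham and IR, as in Wdfy1 at 51.7 to 81.9 CPM in knockout IR against 11.1 to 17.6 CPM in aged IR.

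How firmly these calls stood differed between genes. Wdfy1, Tmem181b-ps, Dynlt1b and Hmgn2 stayed past the threshold when any 1 of the 6 libraries was left out. Guf1 lost its call in all 6 of these fits, Sfn in 5 (it kept it without aged IR 2), and Gnb3 in 4 (without aged IR 1, aged IR 2, knockout IR 1 or knockout IR 3). Hpn lost it without knockout IR 2 or knockout IR 3, Pydc3 without knockout IR 2 and Sesn2 without knockout IR 3. Without the atrial-transcript libraries, with the spread of knockout IR 2 assumed to be that of the other groups, Wdfy1 and Tmem181b-ps remained called.

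The 3 higher genes were joined by 5 with the next smallest p-values, none of which passed. Ncam1, a neural cell adhesion molecule also made by stressed cardiomyocytes, was at 4.93, 4.36 and 5.21 CPM in aged IR and at 11.5, 15.7 and 13.8 CPM in knockout IR (log2 difference 1.497 ± 0.273, edgeR adjusted p = 0.0571). Extl1, an exostosin-like glycosyltransferase gene 1.85 Mb from Sesn2 at chr4:134356372-134383850, was at 29.7, 29.1 and 27.0 CPM in aged IR and at 49.6, 42.7 and 61.1 CPM in knockout IR (0.84 ± 0.15, edgeR adjusted p = 0.0571). Both were higher in every knockout library, and both passed the test in sham hearts (adjusted p = 0.0049 and 0.0369). Lfng, which modifies Notch receptors, had a log2 difference of 0.85 ± 0.16 (edgeR adjusted p = 0.0607), and Ttyh3, of a chloride channel family, of 0.97 ± 0.20 (edgeR adjusted p = 0.164). Hspa1a, an inducible HSP70 gene, was at 3.56, 4.25 and 4.68 CPM in aged IR and at 8.62, 13.4 and 11.8 CPM in knockout IR (1.44 ± 0.30, edgeR adjusted p = 0.164).

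All 10 genes called after IR were also called, with the same sign and without overlap of the groups, between knockout sham and aged sham hearts, which are other animals. Wdfy1 was at 10.2, 9.99 and 12.6 CPM in aged sham and at 45.8, 48.4 and 55.3 CPM in knockout sham (log2 difference 2.19, edgeR adjusted p = 8.49e-05). Sesn2 differed by -4.43 in sham (adjusted p = 0.000565), Pydc3 by -5.47 (adjusted p = 3.79e-05), Hmgn2 by -1.60 (adjusted p = 0.000747) and Gnb3 by -2.12 (adjusted p = 8.29e-05). None of the 10 was called for a change of the difference between sham and IR (0 of 10, against 0.0505% of all genes for that test). The young wild-type IR libraries did not overlap the knockout IR libraries for 9 of the 10 genes, and overlapped the aged IR libraries for 7. The exception was Gnb3, at 6.23, 7.56 and 7.99 CPM in young IR, which overlapped the knockout and not the aged hearts, while young sham hearts held 18.2, 15.3 and 17.7 CPM.

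Read the other way, few of the differences between uninjured knockout and old hearts were still called after IR. Of the 322 genes called in sham, 10 were called after IR, 95 had an unadjusted p below 0.05 after IR, all with the sign they had in sham, and 293 had the same sign. The 213 genes higher in knockout sham had a median log2 difference of 1.03 in sham and 0.26 after IR, and the 109 lower genes had -0.83 and -0.37. The medians over all tested genes were 0.02 in both. Since these genes were picked for their difference in sham, a smaller value in other samples is a property of the choice as well, and the sets are given as a description. Across all 13859 genes the differences in sham and after IR, which share no library, correlated with a Pearson r of 0.43 and a Spearman rho of 0.47.

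**Figure D2:**
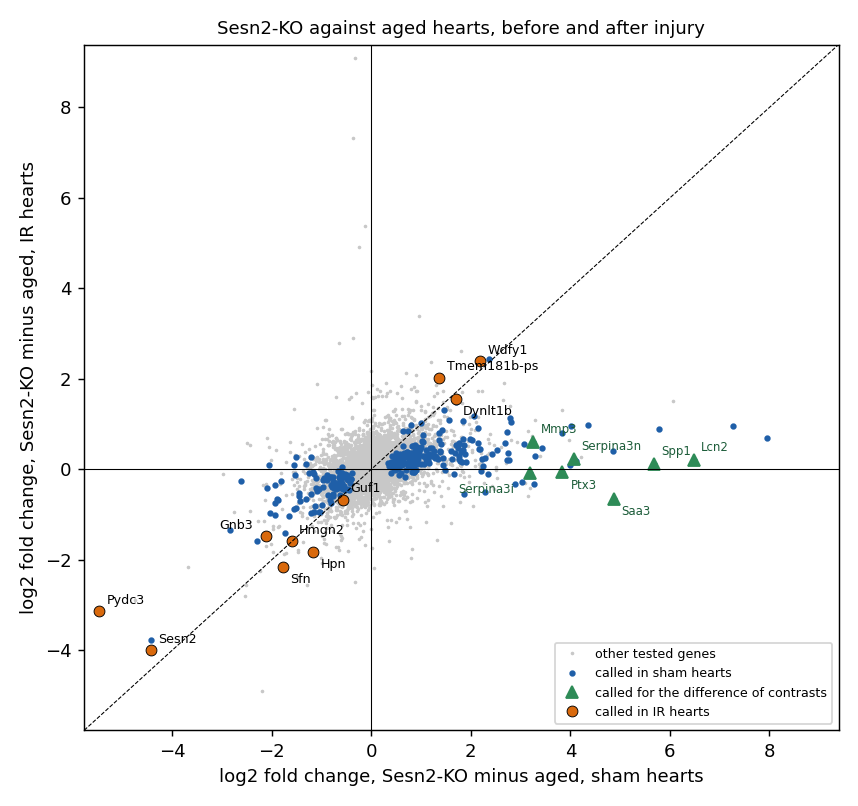
Log2 difference between knockout and aged hearts in sham (horizontal axis) and after IR (vertical axis), 1 point per tested gene, with the genes called in sham, after IR or for the difference marked. The genes called after IR have the same sign on both axes, and some, such as Pydc3, lie farther from 0 in sham than after IR. The genes called for the difference lie closer to 0 on the vertical axis than on the horizontal axis, at sham values of 3.20 to 6.48.

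The genes that respond to IR were taken from a group outside the comparison, the young wild-type hearts. In these, 578 genes were higher after IR than after sham (4.17%) and 263 lower (1.90%) by the edgeR test. Of the 578 injury-induced genes, 0 were called between knockout IR and aged IR, 46 were higher and 2 lower at an unadjusted p below 0.05 (3.59% and 4.11% of all genes were), and 473 had a higher value in the knockout, with a median log2 difference of 0.18. The DESeq2 Wald test called Prg4, and without its filter it and limma voom each called the same 3 of these genes, Prg4, Hspa1a and Ncam1, all higher in the knockout. Ncam1 was also called by edgeR with upper quartile scaling, without the filter on low counts, with the replicate block and with the length covariate. The median was 0.09 without aged IR 2, 0.11 without knockout IR 2 and 0.27 without the atrial-transcript libraries. In sham hearts 140 of the same genes were called higher in the knockout (1.54% of all genes were), with a median of 0.69. The rise from sham to IR over these genes had a median of 0.95 in aged, 0.50 in knockout and 1.13 in young wild-type hearts. Sham and IR hearts are different animals, so no heart was followed over time. The set was higher in knockout sham than in aged sham hearts. The injured groups overlapped in its mean level, with 473 of the 578 genes higher in the knockout. The mean log2 CPM of the set was 3.12, 3.46 and 3.21 in aged sham and 4.09, 4.11 and 4.21 in knockout sham, without overlap. After IR it was 4.69, 4.24 and 4.55 in aged and 4.53, 4.87 and 4.73 in knockout hearts, which overlapped. Over all genes, edgeR called 1054 between IR and sham in aged hearts (7.61%) and 0 in knockout hearts (0%, with 2037 at an unadjusted p below 0.05). The DESeq2 Wald test called 1563 and 131, or 1563 and 128 without its filter, and limma voom 3438 and 1235. The test of the difference between these responses called 7 genes.

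The 263 genes that IR lowers in young wild-type hearts were the mirror image. Their mean log2 CPM was 4.69, 4.74 and 4.65 in aged sham and 4.20, 4.08 and 4.11 in knockout sham, and after IR it was 3.88, 3.96 and 3.92 in aged and 3.92, 3.68 and 3.72 in knockout hearts. The change from sham to IR had a median of -0.75 in aged, -0.30 in knockout and -0.90 in young wild-type hearts. Between knockout IR and aged IR, 2 were called, Tmem181b-ps (higher) and Gnb3 (lower), and 43 were lower and 6 higher at an unadjusted p below 0.05 (4.11% and 3.59% of all genes were), with a median of -0.15. The DESeq2 Wald test called 5 other genes, all lower (Chpt1, Efnb3, Lrtm1, Kcnj11 and Mrpl3). Without its filter it called 5 lower and 1 higher, and limma voom called 2 lower (Gnb3 and Lrtm1) and 1 higher (Tmem181b-ps). The median became -0.10 without knockout IR 2 and -0.28 without the atrial-transcript libraries. In sham, 48 of them were called lower in the knockout (0.786% of all genes were), with a median of -0.51.

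**Figure D3:**
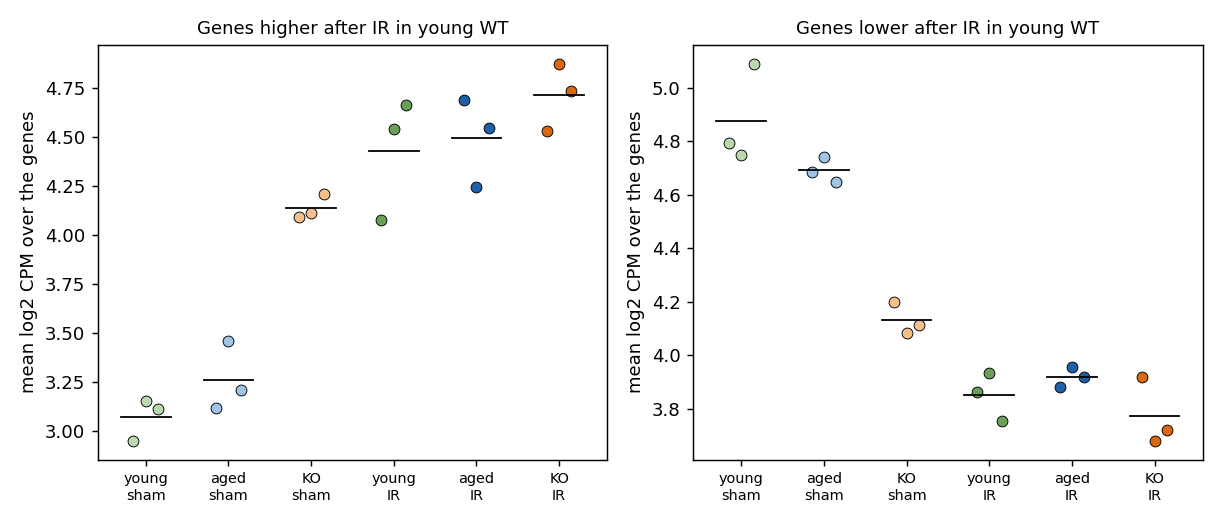
Mean log2 CPM, 1 point per library, of the 578 genes that IR raises and the 263 genes that it lowers in young wild-type hearts, in the 6 groups. Knockout sham hearts, at 4.09 to 4.21 for the raised set, lie above aged sham hearts (3.12 to 3.46), just above young IR 1 (4.08) and under the other injured hearts, which start at 4.24.

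For 7 genes the difference between knockout and aged hearts itself changed between sham and IR (edgeR test of the difference of the contrasts, 0.0505% of genes), always toward a smaller value after IR. All 7 encode secreted proteins of acute inflammation or matrix remodelling. Serpina3n, a serine protease inhibitor of the acute phase (chr12:104406729-104414329), was at 27.6, 46.3 and 23.1 CPM in aged sham and already at 365, 549 and 723 CPM in knockout sham. After IR it was at 356, 551 and 294 CPM in aged and at 455, 406 and 553 CPM in knockout hearts. The uninjured knockout hearts thus stood within or above the range of the injured old hearts, and the injured groups overlapped. The log2 difference was 4.07 in sham and 0.24 after IR (edgeR adjusted p = 0.927), and its change was -3.84 ± 0.46 (adjusted p = 0.00374).

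Lcn2, which encodes the iron-siderophore-binding protein lipocalin 2 (chr2:32384633-32388252), had the largest change, -6.26 ± 0.89 (edgeR adjusted p = 0.00651). It was at 2.58, 7.51 and 2.27 CPM in aged sham, 149, 618 and 348 in knockout sham, 266, 538 and 213 in aged IR and 582, 295 and 305 in knockout IR. Spp1, the osteopontin gene of activated macrophages and fibroblasts (chr5:104435118-104441050), was at 1.11, 1.88 and 0.851 CPM in aged sham, 46.4, 87.9 and 68.6 in knockout sham, 302, 107 and 153 in aged IR and 195, 237 and 179 in knockout IR (change -5.57 ± 0.78, edgeR adjusted p = 0.00651). Lcn2 in knockout sham reached the range of the injured hearts, while Spp1 in knockout sham lay between aged sham and the injured hearts. Saa3, a serum amyloid A gene (chr7:46711998-46715700), was at 0.348, 0.375 and 0.095 CPM in aged sham, 8.94, 11.3 and 5.78 in knockout sham, 14.4, 16.6 and 6.89 in aged IR and 8.22, 9.41 and 6.30 in knockout IR (change -5.54 ± 0.76, edgeR adjusted p = 0.00651). The knockout Saa3 values of sham and IR hearts overlapped.

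Ptx3, the long pentraxin of innate immunity (chr3:66219910-66225805), changed by -3.90 ± 0.55 (edgeR adjusted p = 0.00651), from a log2 difference of 3.83 in sham to -0.06 after IR. Serpina3i, a close relative of Serpina3n on the same chromosome whose reads may be shared with it, changed by -3.29 ± 0.54 (edgeR adjusted p = 0.0291). Mmp3, the matrix metalloproteinase stromelysin 1 (chr9:7445822-7455975), did not meet the rule for naming and was picked with its values already in view. Mmp3 stood at 7.66, 14.7 and 8.04 CPM in aged sham, 115, 87.7 and 88.8 in knockout sham, 118, 78.6 and 65.0 in aged IR and 144, 146 and 109 in knockout IR (change -2.65 ± 0.35, edgeR adjusted p = 0.00651). In all 7 genes the sham groups were far apart and the IR groups overlapped. None of the 7 calls remained without the libraries tilted by transcript length (374 genes at an unadjusted p below 0.05) or without the atrial-transcript libraries (546 genes), and 2 genes were called without aged sham 1.

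**Figure D4:**
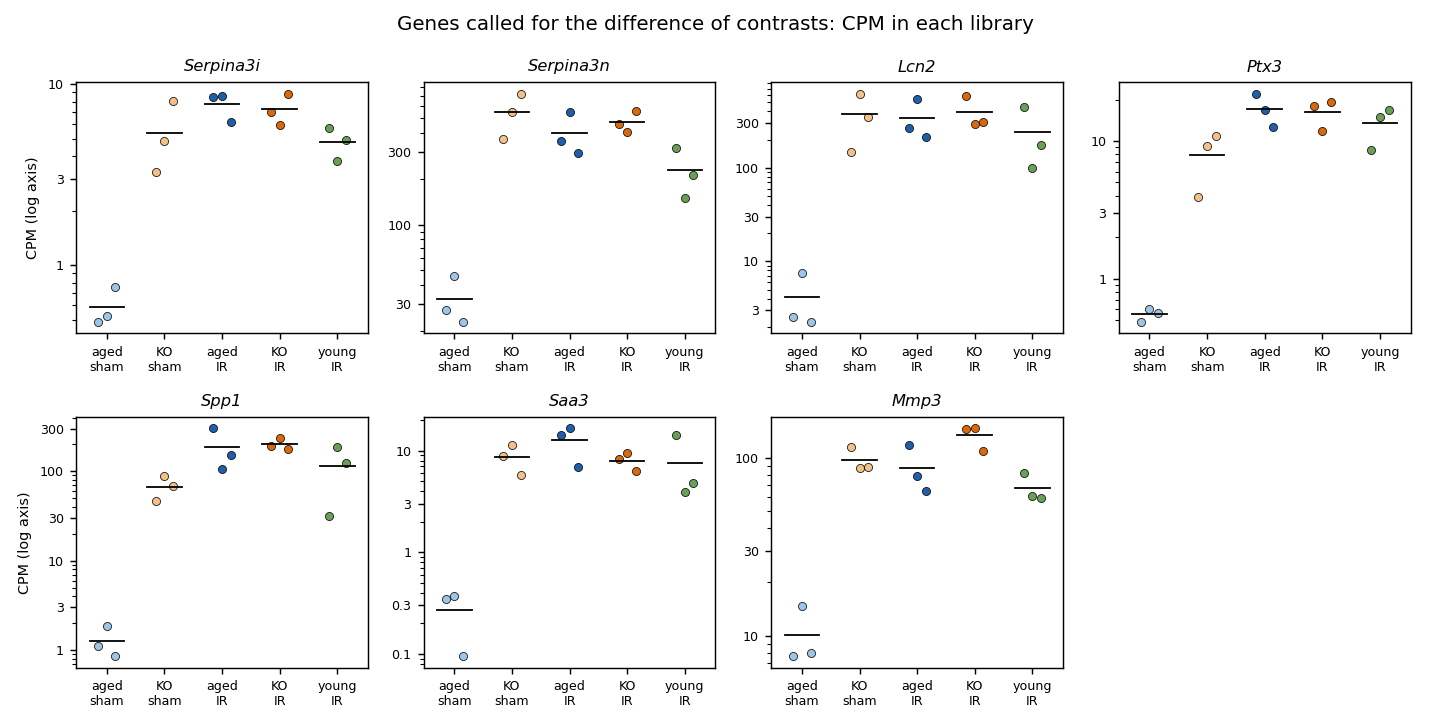
CPM (log axis) of the 7 genes whose knockout-to-aged difference changed between sham and IR, 1 point per library. Aged sham hearts are lowest in every panel (Serpina3n 23.1 to 46.3 CPM), and the aged IR and knockout IR groups overlap. Knockout sham hearts lie near the injured hearts in Serpina3n (365 to 723 CPM), while in Spp1 they lie under every aged IR and knockout IR heart.

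Transcripts of mitochondrial fuel use had lower values in the injured knockout than in the injured old heart, and no single gene passed the edgeR test. Over all lists described here, edgeR called Sesn2 and Wdfy1. Calls by the DESeq2 Wald test or by limma voom are named beside a list; where none is named, neither made any. Ranges of a median are over the 6 fits that leave out 1 library, and each median is over the members tested in its fit. Of 36 genes of the TCA cycle and branched-chain amino acid breakdown, 36 had a lower mean in knockout IR, with a median log2 difference of -0.32, against 0.02 over all genes. None was called by edgeR, 19 had an unadjusted p below 0.05, and for 19 the groups did not overlap, where 4.11% and 5.35% of all genes were lower by these measures. The DESeq2 Wald test called 9 (1, Dld, without its filter) and limma voom 0. Dld, the subunit shared by the 2-oxoacid dehydrogenases, was at 579, 611 and 627 CPM in aged IR and at 468, 425 and 485 CPM in knockout IR (-0.40 ± 0.11, edgeR adjusted p = 0.366). Aldh6a1, of valine breakdown, was at 275, 316 and 318 CPM in aged IR and at 172, 145 and 218 CPM in knockout IR (-0.76 ± 0.21, edgeR adjusted p = 0.383). In both genes the highest knockout library lay under the lowest aged one. The list was lower in 36 of 36 genes in each fit that left out 1 library, with a median of -0.40 to -0.26, and without the atrial-transcript libraries its median was -0.47. In sham hearts its median was -0.24.

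Of 33 genes of fatty acid oxidation, 30 were lower in knockout IR, 13 of them at an unadjusted p below 0.05, with a median of -0.42 and none called by edgeR (3 by the DESeq2 Wald test, 0 by it without its filter and 0 by limma voom). Hadh, the short-chain hydroxyacyl-CoA dehydrogenase, was at 841, 1038 and 819 CPM in aged IR and at 732, 472 and 555 CPM in knockout IR (-0.62 ± 0.19, edgeR adjusted p = 0.461). Acadm, the medium-chain acyl-CoA dehydrogenase, was at 1417, 1754 and 1479 CPM in aged IR and at 1177, 932 and 1172 CPM in knockout IR (-0.50 ± 0.16, edgeR adjusted p = 0.472). Acot1, a cytosolic acyl-CoA thioesterase induced by fatty acids, was at 31.3, 90.9 and 27.8 CPM in aged IR and at 24.0, 7.80 and 12.6 CPM in knockout IR (-1.76 ± 0.69, edgeR adjusted p = 0.56). Acot1 shows how uneven the libraries were, with aged IR 2 far above the other aged hearts. The list's mean log2 CPM was 8.26, 8.66 and 8.22 in aged IR and 8.20, 7.61 and 7.98 in knockout IR. Knockout IR 2 was lowest and aged IR 2 highest, and the list's median moved to -0.29 without the former, -0.30 without the latter, -0.55 without knockout IR 1 and -0.74 without the atrial-transcript libraries. In sham hearts the median was 0.12.

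All 46 nuclear genes of the respiratory chain and ATP synthase were lower in knockout IR, with a median of -0.20, none called by edgeR, 5 at an unadjusted p below 0.05 and Uqcrc2 called by the DESeq2 Wald test. Without aged IR 2 the count was 33 and without knockout IR 3 it was 35, each with a median of -0.05; the median was -0.40 without knockout IR 1, -0.30 without aged IR 3 and -0.26 without the atrial-transcript libraries. Of 33 genes of contraction and ion handling in cardiomyocytes, 29 were lower (7 at an unadjusted p below 0.05, median -0.19) and none was called by edgeR, while the DESeq2 Wald test called Myom1 and Ckm. The median was -0.10 without aged IR 2, with 25 lower, and -0.26 without the atrial-transcript libraries. Myom1, which crosslinks myosin at the M-band, was at 1847, 1997 and 2135 CPM in aged IR and at 1534, 1576 and 1689 CPM in knockout IR (-0.32 ± 0.10, edgeR adjusted p = 0.49). In bulk tissue, fewer cells of a type and less RNA per cell cannot be told apart. Of 33 mitophagy and autophagy genes 28 were lower, with a median of -0.13, none called by edgeR and 3 at an unadjusted p below 0.05 (range -0.18 to -0.09, and -0.16 without the atrial-transcript libraries). Optn, a mitophagy receptor, was at 152, 173 and 127 CPM in aged IR and at 93.8, 91.1 and 76.3 CPM in knockout IR (-0.79 ± 0.17, edgeR adjusted p = 0.173), without overlap. Optn was called by the DESeq2 Wald test and limma voom, and it passed in sham hearts (-0.99, edgeR adjusted p = 0.00652). The list medians in sham hearts were 0.03 for the respiratory chain, -0.12 for contraction and ion handling and 0.08 for mitophagy and autophagy.

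The sestrins and the amino-acid arm of mTORC1 were tested as the pathway of the deleted gene. Of 40 members tested out of 43 listed, Sesn2 was the 1 called gene, 5 were lower at an unadjusted p below 0.05, and the median was -0.10. Sesn1, the p53-regulated sestrin, was at 134, 142 and 191 CPM in aged IR and at 130, 88.0 and 110 CPM in knockout IR (-0.51 ± 0.19, edgeR adjusted p = 0.535). Sesn3, the FoxO-regulated sestrin, was at 3.56, 2.91 and 4.15 CPM in aged IR and at 4.81, 4.59 and 5.81 CPM in knockout IR (0.51 ± 0.33, edgeR adjusted p = 0.771). The groups of both genes were just apart, and neither difference passed. Mtor, the kinase itself, was at 100, 100.5 and 93.9 CPM in aged IR and at 70.7, 64.4 and 72.9 CPM in knockout IR (-0.50 ± 0.10, edgeR adjusted p = 0.0984). Mtor lies 15.9 Mb from Sesn2 at chr4:148448611-148557683, and it was called by the DESeq2 Wald test and by limma voom (adjusted p = 0.0169). The groups were well apart in Mtor, and in sham hearts the difference was -0.26 (edgeR adjusted p = 0.178). Of 16 AMPK subunits and regulators none was called by edgeR and 2 were lower at an unadjusted p below 0.05 (median -0.08, range -0.14 to 0.06). The lowest p was that of Acacb, the acetyl-CoA carboxylase that AMPK inhibits, at 381, 454 and 412 CPM in aged IR and 315, 234 and 325 CPM in knockout IR (-0.51 ± 0.19, edgeR adjusted p = 0.541).

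Stress-response transcripts tended to higher values in the injured knockout, again without edgeR calls. All 27 immediate early genes, which stimulated cells induce fast and which include transcription factors and phosphatases, had a higher mean in knockout IR (median 0.42). Of these, 4 had an unadjusted p below 0.05, against 3.59% of all genes. In sham hearts the list's median was larger, at 0.64, and 4 members were called higher in the knockout (1.54% of all genes were). Nr4a1, an orphan nuclear receptor, was at 10.2, 14.1 and 16.6 CPM in aged IR and at 23.4, 43.9 and 20.04 CPM in knockout IR (1.10 ± 0.37, edgeR adjusted p = 0.491). Dusp1, a phosphatase of stress kinases, was at 36.3, 39.1 and 48.7 CPM in aged IR and at 67.6, 60.4 and 55.2 CPM in knockout IR (0.56 ± 0.21, edgeR adjusted p = 0.534). Knockout IR 2 was the highest library for the list, and without it 22 of 27 were higher, with a median of 0.15. The median was 0.27 without aged IR 2, 0.55 without knockout IR 1 and 0.67 without the atrial-transcript libraries. Of 18 heat shock protein genes 11 were higher (3 at an unadjusted p below 0.05, median 0.15, sham 0.30). The median after IR was 0.06 without knockout IR 2. Among the higher genes were Hspa1a and its neighbouring copy Hspa1b, which share sequence, so that their counts are uncertain. Hspa1a was called by limma voom and by the DESeq2 Wald test without its filter. Integrated stress response genes and endoplasmic reticulum chaperones numbered 31, of which 23 were higher (3 at an unadjusted p below 0.05, median 0.23, sham 0.51), and the median ranged from 0.10 without knockout IR 3 to 0.35 without aged IR 3. Of 29 NRF2 and antioxidant genes, 14 were higher and 15 lower (1 and 2 at an unadjusted p below 0.05, median -0.01, or 0.01 with upper quartile scaling, sham 0.16), and the DESeq2 Wald test called Prdx3, which was lower.

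No marker of infiltrating cells or of inflammation was called between the injured groups by edgeR. List medians were mostly above 0, but several near 0 changed sign when 1 library was left out or with the scaling. Of 16 resident macrophage markers 10 were higher in knockout IR (median 0.05), and of 21 complement and acute-phase genes 11 were (median 0.05). Of 12 B and plasma cell markers 4 were higher (median -0.14). Of 20 neutrophil markers 14 were tested, and none was called or had an unadjusted p below 0.05. Their median was 0.07 after IR, against 2.61 in sham hearts, where 6 were called higher in the knockout (1.54% of all genes were). S100a8, a subunit of the neutrophil protein calprotectin, was at 46.2, 26.4 and 33.3 CPM in aged IR and at 23.1, 40.8 and 23.9 CPM in knockout IR (-0.27 ± 0.42, edgeR adjusted p = 0.945). In sham hearts it was at 0.696, 3.45 and 1.89 CPM in aged and 25.8, 8.35 and 15.2 CPM in knockout libraries (3.03, edgeR adjusted p = 0.00652). The sham groups were apart and the IR groups overlapped. The neutrophil median was -0.25 without knockout IR 2, -0.14 without aged IR 2, 0.14 without aged IR 1 and 0.31 without the atrial-transcript libraries, where 12 of 14 were higher. Of 25 monocyte and inflammatory macrophage markers 23 were higher in knockout IR, by a median of 0.08, with none called and 1 at an unadjusted p below 0.05. That median was -0.02 without aged IR 2, 0.36 without aged IR 1 and 0.34 without the atrial-transcript libraries. In sham hearts the median of this list was 0.88, and 4 members were called higher in the knockout (1.54% of all genes were).

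Of 30 cytokine and chemokine genes, 25 were higher in knockout IR (median 0.30), none was called and 4 had an unadjusted p below 0.05. In sham hearts 11 were called higher (1.54% of all genes were), with a median of 1.29. The median after IR was 0.13 without knockout IR 2, 0.51 without aged IR 1 and 0.48 without the atrial-transcript libraries. Cxcl1, which attracts neutrophils, was at 9.32, 6.94 and 7.86 CPM in aged IR and at 14.9, 18.9 and 11.97 CPM in knockout IR (0.92 ± 0.36, edgeR adjusted p = 0.56). Il1rn, the interleukin 1 receptor antagonist, was at 5.46, 3.58 and 6.01 CPM in aged IR and at 9.42, 10.5 and 11.1 CPM in knockout IR (1.04 ± 0.42, edgeR adjusted p = 0.578). Both were higher in every knockout library without passing, and both passed in sham hearts (2.14 and 2.80, edgeR adjusted p = 0.0125 and 0.0187). Cxcl14, a chemokine of epithelial and stromal cells, was at 55.8, 82.4 and 38.96 CPM in aged IR and at 113, 140.3 and 93.1 CPM in knockout IR (0.97 ± 0.32, edgeR adjusted p = 0.49). Of 41 interferon-response genes 22 were higher and 19 lower after IR, with a median of 0.01, against -0.65 in sham hearts, and 0 had an unadjusted p below 0.05; the sign of that median changed with the scaling (-0.01 with DESeq2 size factors). The 9 MHC class II presentation genes tested had a median of 0.40 after IR and -0.41 in sham, and 13 T and NK cell markers, most of them at low levels, had 0.79 and 0.02; none was called in either list, and 0 and 4 had an unadjusted p below 0.05. The MHC class II median was 0.20 without aged IR 2, 0.27 without knockout IR 2 and 0.83 without the atrial-transcript libraries, and the T and NK median 1.23 without knockout IR 3 and 1.16 without the atrial-transcript libraries.

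Of 40 genes of fibrillar matrix and its cross-linking, 34 were higher in knockout IR (median 0.26), none was called and 2 had an unadjusted p below 0.05. Without the atrial-transcript libraries 25 were higher, with a median of 0.10, and the median was 0.16 without knockout IR 1. In sham hearts the median was 0.45, with 4 called higher and 1 lower in the knockout (1.54% and 0.786% of all genes were). Timp1, an inhibitor of matrix metalloproteinases, was at 265, 89.6 and 174 CPM in aged IR and at 180, 450.0 and 288 CPM in knockout IR (0.79 ± 0.41, edgeR adjusted p = 0.698), with overlap, although its sham difference was 3.83 (edgeR adjusted p = 0.000565). Of 14 epicardial and mesothelial markers 10 were lower (3 at an unadjusted p below 0.05, median -1.75, sham -1.05) and none was called. Msln, the mesothelial surface protein mesothelin, was at 9.17, 4.36 and 2.30 CPM in aged IR and at 1.10, 1.61 and 0.0708 CPM in knockout IR (-2.56 ± 1.11, edgeR adjusted p = 0.619). This list was low in counts and uneven among the aged libraries, and its median was -0.98 without aged IR 1 and -0.95 without the atrial-transcript libraries. Of 20 fibroblast and myofibroblast markers 16 were higher (2 at an unadjusted p below 0.05, median 0.20), with Cnn1 called by limma voom, and the median was -0.02 without knockout IR 1 and -0.03 without the atrial-transcript libraries. Of 18 endothelial markers 7 were higher (0 at an unadjusted p below 0.05, median 0.00, or 0.02 with upper quartile scaling, range -0.21 to 0.08, and -0.20 without the atrial-transcript libraries). Of 20 fetal and load-responsive cardiomyocyte genes 16 were higher (3 at an unadjusted p below 0.05, median 0.28), with the atrial gene Mybphl called by the DESeq2 Wald test without its filter. Their median was -0.02 without knockout IR 2, 0.62 without aged IR 3 and 0.69 without the atrial-transcript libraries. Ankrd1, which is induced by stretch, was at 2724, 2432 and 3895 CPM in aged IR and at 3344, 4717 and 3789 CPM in knockout IR (0.39 ± 0.33, edgeR adjusted p = 0.845), with overlap. Of 39 ribosomal protein genes 36 were higher, by a median of 0.09 and with 0 at an unadjusted p below 0.05. That median was -0.01 without aged IR 3, 0.00 without knockout IR 1 and 0.21 without knockout IR 3. In sham hearts the medians were 0.28 for the fibroblast and myofibroblast list and -0.03 for the endothelial list. They were 0.46 for the fetal and load-responsive list and 0.35 for the ribosomal protein list.

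**Figure D5:**
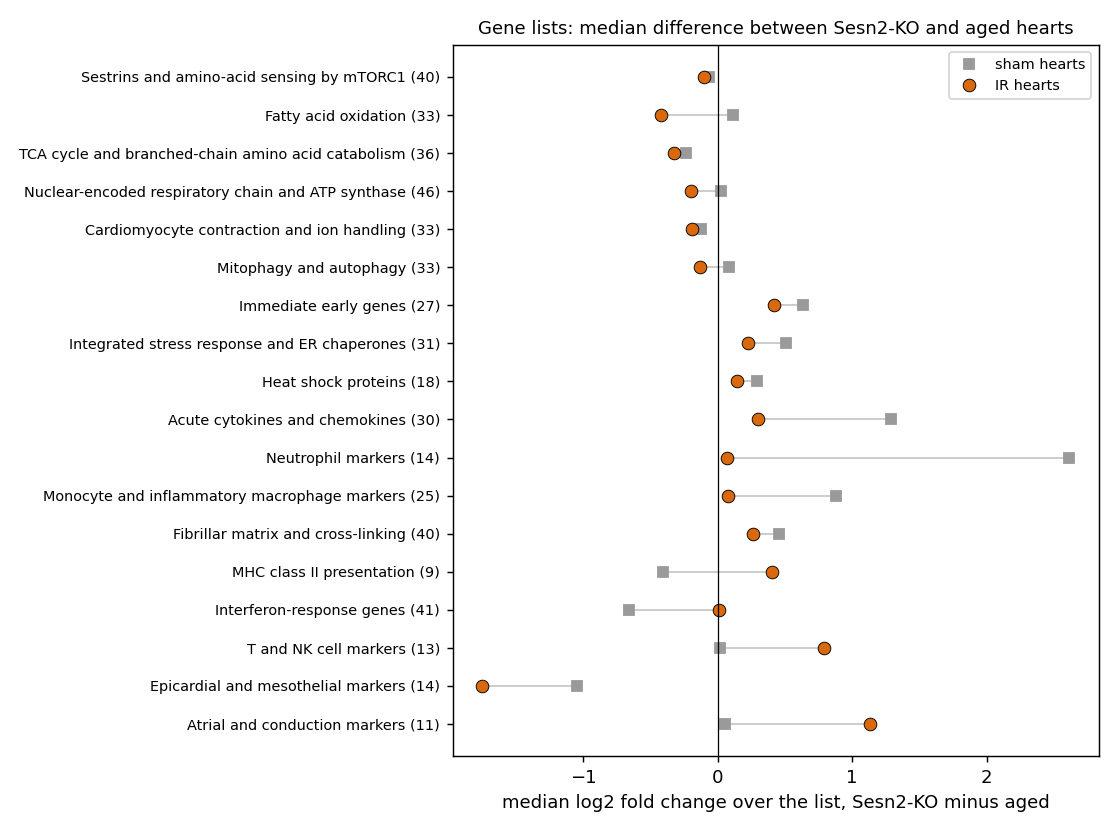
Median log2 difference between knockout and aged hearts of selected gene lists after IR and in sham, with a vertical line at no difference. Neutrophil markers lie at 0.07 after IR and at 2.61 in sham, and fatty acid oxidation genes at -0.42 after IR and 0.12 in sham.

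Genes that can mark the source of a colony were read beside these results, and Wdfy1, the called gene with the smallest p, is one of the list. Ide, the insulin-degrading enzyme, was at 119, 170 and 207 CPM in aged IR and at 90.7, 100.2 and 104 CPM in knockout IR (-0.75 ± 0.18, edgeR adjusted p = 0.241; called by the DESeq2 Wald test), and passed in sham hearts (-0.82, edgeR adjusted p = 0.0265). Nnt, the mitochondrial transhydrogenase whose gene is partly deleted in C57BL/6J mice, was at 525, 667 and 589 CPM in aged IR and at 793, 781 and 814 CPM in knockout IR (0.42 ± 0.14, edgeR adjusted p = 0.495). Both groups thus held Nnt reads at the level of an abundant transcript. The Y-linked gene Eif2s3y was at 88.9, 87.5 and 92.6 CPM in aged IR and at 65.4, 53.2 and 67.4 CPM in knockout IR (-0.53 ± 0.12, edgeR adjusted p = 0.212; called by limma voom, by the DESeq2 Wald test without its filter and with the length covariate), while Ddx3y, Uty and Kdm5d overlapped between the groups. Values are printed here for part of the list. Of its 9 tested members 3 were higher and 6 lower in knockout IR, with a median of -0.15 and values from -1.43 to 2.39. The part of colony background in the called genes was not tested.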

How the data were processed

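RNA from left ventricles was sequenced from TruSeq stranded mRNA libraries as paired ends on a NextSeq 500, per the labels' protocols. Reads were checked with FastQC, mapped to mm10 with tools that included TopHat2, Bowtie2 and SAMtools, and counted with HTSeq, per the submitters' processing notes; versions, annotation and strand setting were not given in the sources used here, so antisense and overlapping genes are uncertain. The authors deposited a raw read count per gene symbol for each sample; the reads in no gene (6.12% to 7.61% of the compared libraries) or in several (0.693% to 0.759%) were left out. The members and gene lists were chosen with earlier results of these data known.

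Counts were filtered by filterByExpr and scaled by TMM. A model with 6 group means over 18 libraries (12 residual degrees of freedom) was then fitted by robust quasi-likelihood in edgeR 4.0.16 (R 4.3.3). The contrasts were knockout IR against aged IR, the same in sham, and their difference, with Benjamini-Hochberg adjustment over all tested genes and calls at 0.05. CPM uses TMM-scaled library sizes, and log2 CPM for means and distances has a prior count of 2. Values after ± are standard errors. Replicates of the compared groups differed by more than sampling noise (chi-square of 15.1 to 48.3 per degree of freedom). Gene positions are from GENCODE M21 on GRCm38 (mm10), matched once for 23334 symbols (95.5%), except Pydc3 from RefSeq. The steps were tested on simulated data. Of 36 lists, those described are given by counts and medians.

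Named genes were up to 12 called genes per direction by fold change at a mean of at least 1 CPM without overlap, filled to 8 by p where fewer than 6 qualified, up to 6 per direction for the difference, up to 4 per list by p, the sestrins and the colony genes, without predicted genes. Alternatives were upper quartile scaling, DESeq2 1.42.0 size factors and Wald test, no filter, limma 3.58.1 voom with quality weights, the compared groups alone, a replicate block, a length covariate and leaving out libraries. The Wald test without independent filtering and the fit without both libraries with atrial transcripts, and the counts of other tools for IR against sham within a group, were added after seeing the data.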

Additional observations from a re-analysis of the deposited data

Results flagged for a closer look

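For 7 genes the test of the difference itself found that the knockout-to-aged difference was not the same after IR as in sham hearts. The log2 difference after IR minus that in sham was -3.84 for Serpina3n, -3.29 for Serpina3i, -6.26 for Lcn2, -5.57 for Spp1, -5.54 for Saa3, -3.90 for Ptx3 and -2.65 for Mmp3 (edgeR adjusted p = 0.00374 to 0.0291). In all of them aged sham hearts were low and knockout sham hearts were high before any occlusion, while the injured groups overlapped. Every knockout sham library was above every aged sham library in each of the 7 genes.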

How the results depend on the processing

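A replicate block used the replicate numbers, though the labels do not say whether these pair the samples. Same-numbered deviations of aged IR and knockout IR correlated at 0.03, -0.24 and 0.61 for replicates 1 to 3. Both libraries of replicate 3 were tilted toward long transcripts, and the source of the tilt was not tested. Of 10 genes called after IR (3 higher, 7 lower), the count was 10 with DESeq2 size factors, 12 with upper quartile scaling (6 higher and 6 lower, 9 shared, Guf1 lost), 10 without a filter on low counts (9 shared, Guf1 lost) and 10 with a replicate block (9 shared, Sfn lost). It was 66 by the DESeq2 Wald test, where 2571 genes kept an adjusted p and none of the 10 did, 52 without that test's independent filtering (all 10 among them), 41 by limma voom (9 of the 10, without Pydc3), 40 with transcript length as covariate (all 10), 0 with the compared groups alone, 5 to 8 with 1 library left out, 4 without the length-tilted libraries and 2 without both libraries with atrial transcripts. The 322 genes called in sham became 679 by the Wald test with or without filtering, 1695 by limma voom, 1312 with the length covariate, 349 with the replicate block, 70 to 202 with 1 library left out (70 without aged sham 1) and 22 without the length-tilted libraries. The 7 genes called for the difference became 30 by the Wald test with or without filtering, 23 by limma voom, 8 with the replicate block, 2 to 13 with 1 library left out (2 without aged sham 1, 13 without Sesn2-KO sham 1), and 0 both without the length-tilted libraries (374 at an unadjusted p below 0.05 by edgeR) and without both libraries with atrial transcripts (546 at an unadjusted p below 0.05). Fewer samples enter the fits that leave libraries out; for the other changes the cause was not tested. None of the 22 genes followed through these fits (the called genes of both tests and 5 named beside them) changed sign. Depth limits the low genes: the Sesn2 call rests on 120 reads against 8, and Pydc3 on 107 against 13.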
